A study of Mus musculus with 6 samples.

Results

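The IFIT genes encode interferon-induced proteins with tetratricopeptide repeats, and 5 of them (Ifit1, Ifit1bl1, Ifit2, Ifit3 and Ifit3b) are described here in mouse neutrophils that were given lipopolysaccharide (LPS) with or without resveratrol. The members were fixed by name, as listed Ifit genes that could be matched by Ensembl ID to a mouse symbol, and make up 5 of 25663 gene IDs in the deposited count table. The count table holds 6 Ifit genes in all. Ifit1bl2, the sixth, is no member and is given only beside its relatives. Genes of the similarly named IFITM family encode unrelated membrane proteins.

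The samples form 2 groups. The LPS+resveratrol group (n = 3) holds C57BL/6 neutrophils, sorted from bone marrow by CD45, CD11b and Ly6G, that received LPS together with resveratrol for 6 hours, in an amount labelled as 25 μmol. The LPS group (n = 3) holds neutrophils of the same strain and sort that received LPS alone for 6 hours. LPS, a component of bacterial cell walls, is common to both groups, and samples without LPS were not analysed here, so the data bear on the effect of resveratrol in stimulated cells and not on induction by LPS. The labels do not give the age of the mice, nor whether each sample is a different animal, so each p-value reflects how these particular libraries scatter, and that scatter may be technical.

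IFIT proteins belong to the antiviral response that interferons switch on. After LPS, the receptor TLR4 can signal through the adaptor TRIF to the factor IRF3, which induces interferon beta, and interferon then acts through its receptor to switch on IFIT genes. IFIT1 binds RNA whose cap lacks ribose methylation, as in some viral RNA, and blocks its translation; IFIT2 and IFIT3 form complexes with IFIT1 in human cells.

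All 6 libraries had total counts between 18141352 and 19928153. Of the 11 neutrophil markers listed, all were measured, with summed levels of 31169 to 57160 CPM (counts scaled to a fixed library total, with TMM factors) in LPS+resveratrol samples and of 48733 to 52230 CPM in LPS samples. The lowest value belongs to LPS+resveratrol replicate 1, where the markers went both ways. S100a8, S100a9, Ly6g, Retnlg and Camp were lower there than in replicates 2 and 3 with resveratrol. Csf3r, Cxcr2, Mmp8, Mmp9 and Itgam were higher there, and Ltf lay between. S100a8 was at 2579 CPM in replicate 1 against 11425 and 11211 in replicates 2 and 3, and Mmp8 at 2205 against 1362 and 1394. Replicate 1 with resveratrol also stood apart over all genes. The correlation of its log2 CPM with the other libraries, across genes, was at most 0.969, while each of the other 5 libraries had a correlation of at least 0.993 with some library. Results are therefore given with and without that library, and the comparison without it is called the 5-library comparison.

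The 6 Ifit genes lie side by side on chromosome 19, in the order Ifit2, Ifit3, Ifit1bl1, Ifit3b, Ifit1bl2 and Ifit1 in the RefSeq annotation of GRCm38.p6. Windows of 250 bases before to 50 bases after each annotated start site, from RefSeq on that build, were searched for the core of the interferon-stimulated response element, which is GAAA, any 2 bases and GAAA again, on either strand (TTTC, 2 bases and TTTC when read from the other one), with overlapping matches allowed. At least 1 match was present in 3.44% of all 32851 promoter windows, and at least 2 in 0.225%. Ifit1, Ifit3 and Ifit3b each had 2 matches, and both annotated windows of Ifit1bl1 had 1. Neither of the windows of Ifit2 had a match, which says only that these letters are not in those windows.

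The stretches around the matches are shown so that the motif and the bases on either side can be compared between these neighbouring genes; capitals mark the motif matches, and each runs 5′ to 3′ on the strand of its gene in GRCm38.p6. Ifit1 is at chr19:34640770-34640828 (+ strand), Ifit3 at chr19:34583358-34583431 (+ strand), Ifit3b at chr19:34607754-34607827 (+ strand) and the Ifit1bl1 window with the more upstream match at chr19:34602048-34602087 (− strand).
Ifit1: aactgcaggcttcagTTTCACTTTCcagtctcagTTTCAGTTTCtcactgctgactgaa
Ifit3: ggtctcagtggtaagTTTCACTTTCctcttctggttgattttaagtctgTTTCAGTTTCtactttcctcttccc
Ifit3b: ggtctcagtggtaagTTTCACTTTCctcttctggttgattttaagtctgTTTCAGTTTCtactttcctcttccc
Ifit1bl1: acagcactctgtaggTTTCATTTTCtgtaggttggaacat

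The 74 bases of Ifit3 and Ifit3b are the same letter for letter. Over the best local match of their promoter windows, the pair shared 258 of 260 aligned bases, with 14 bases in gaps. Ifit1, Ifit3 and Ifit3b all carry TTTCACTTTC followed by TTTCAGTTTC, and Ifit1bl1 carries TTTCATTTTC. The 59 bases of Ifit1 are also, read on the other strand, those around the 2 matches in a promoter window of Ifit1bl2, whose start site lies 146 bases from that of Ifit1 and which is transcribed in the opposite direction.

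How far reads can tell these genes apart bears on every value that follows. The coding sequences of Ifit3 and Ifit3b, both of 1209 bases in GENCODE M21, differed at 11 bases with no gap (identity 99.1%). Ifit1bl1 and Ifit1bl2 had an identity of 88.2% over 1398 aligned bases, Ifit1 and Ifit1bl1 of 77.3%, and Ifit2 at most 66.8% with any other Ifit gene. Of all 50-base windows of the Ifit3 transcript, 51.2% occurred without a mismatch in a transcript of Ifit3b, and 45.0% of those of Ifit3b occurred in another gene, mainly Ifit3. With 100-base windows, 31.7% of Ifit3 and 27.4% of Ifit3b were shared. For Ifit1 and Ifit1bl1 the shared part was 7.14% and 6.6% at 50 bases and 3.29% and 0.524% at 100 bases, and no window of Ifit2 was shared at any length tried.

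**Figure D1:**
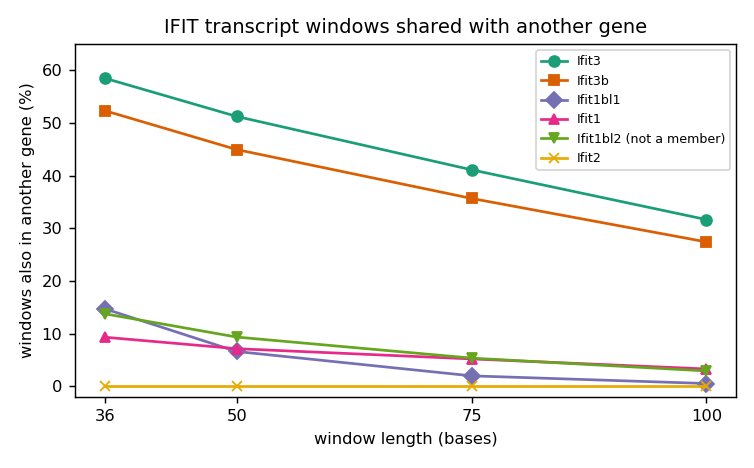
Percentage of windows of each Ifit transcript (longest coding sequence in GENCODE M21) that also occur without a mismatch in a transcript of another gene, against window length in bases. Ifit3 and Ifit3b lie far above the other genes at every length (51.2% and 45.0% at 50 bases), and Ifit2 stays at 0.

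Read length and the treatment of reads with several matches were not given in the sources used here, so the split of counts between Ifit3 and Ifit3b is uncertain, while their sum is not touched by that split. If such reads were discarded, the sum and both levels would be too low. No exon base of any of the 6 genes was covered by an exon of another annotated gene in GENCODE M21, so overlap with antisense transcripts in that annotation does not enter their counts.

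Transcripts of the IFIT family were lower with resveratrol. Over 6 libraries, Ifit1bl1, Ifit2, Ifit3 and Ifit3b fell (quasi-likelihood test of edgeR over 13468 tested genes, with a Benjamini-Hochberg adjusted p under 0.05), with log2 fold changes between −0.68 and −1.28, while Ifit1, at −0.60, did not pass. All 5 members had enough counts to be tested. For comparison, 1.17% of tested genes were called lower and 0.668% higher over 6 libraries. In that fit 2682 of the 13468 tested genes had an unadjusted p under 0.05. In the 5-library comparison all 5 members fell, where 13.3% of tested genes were called lower and 12.1% higher. In bulk samples, fewer cells that express these genes and less of their RNA per cell cannot be told apart.

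**Figure D2:**
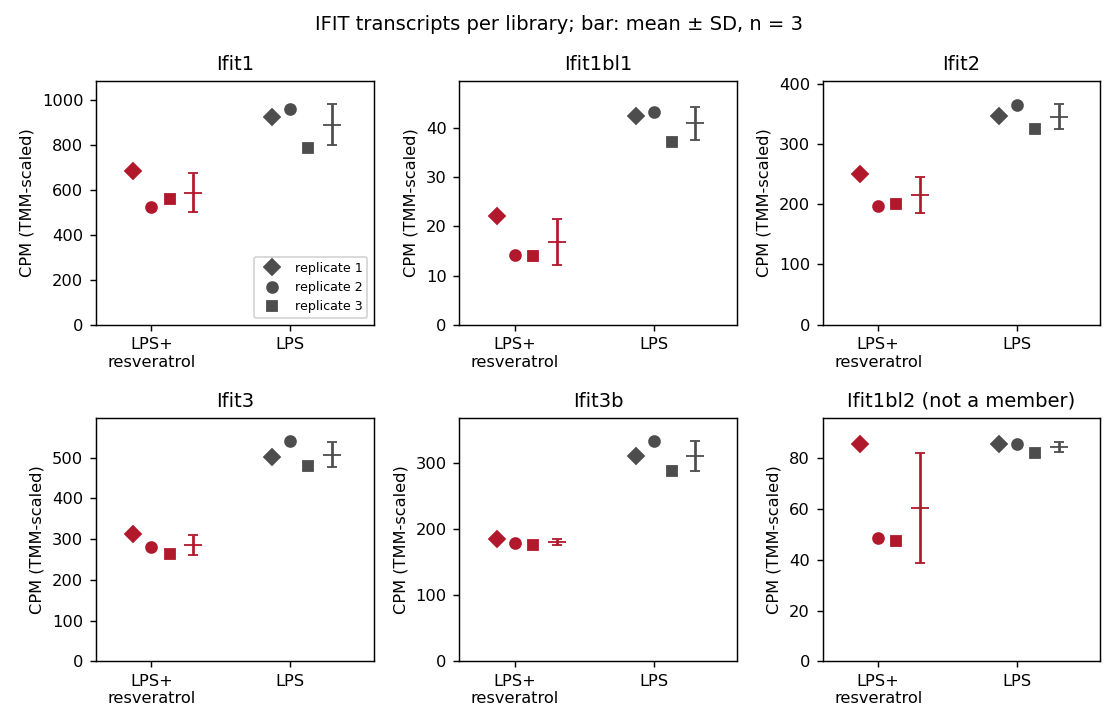
Levels of the 5 IFIT genes and of Ifit1bl2 in each library, in CPM on TMM-scaled totals, with LPS+resveratrol samples at the left and LPS samples at the right of each panel; points are libraries and bars are mean ± SD (n = 3). The groups are apart for every member, and for Ifit1bl2 the diamond of LPS+resveratrol replicate 1 lies at 85.6 CPM, among the LPS samples.

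Ifit1 (ENSMUSG00000034459), the cap-sensing member, had the highest CPM of the family. It had 684.9, 521.4 and 556.6 CPM in LPS+resveratrol replicates 1, 2 and 3, against 921.6, 957.5 and 785.4 CPM in LPS replicates 1, 2 and 3. The groups did not overlap, and the gap was narrow, with the lowest LPS sample at 1.15 times the highest LPS+resveratrol sample. The log2 fold change was −0.60 ± 0.139 (SE, n = 3 each; edgeR adjusted p = 0.086). In the 5-library comparison Ifit1 fell by 0.73 ± 0.0716 on the log2 scale (edgeR adjusted p = 1.22e-06).

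Ifit2 (ENSMUSG00000045932), whose protein restricts several RNA viruses in mice, had 249.5, 197.3 and 199.9 CPM in LPS+resveratrol replicates 1 to 3, against 345.9, 365.5 and 325.2 CPM in LPS replicates 1 to 3. Replicates 2 and 3 with resveratrol were close together, and replicate 1 lay between them and the LPS samples. It fell by 0.68 ± 0.125 on the log2 scale (SE, n = 3 each; edgeR adjusted p = 0.0486), just under the threshold, and by 0.81 ± 0.0555 in the 5-library comparison.

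Ifit3 (ENSMUSG00000074896), whose human counterpart stabilises IFIT1, had 313.5, 280.2 and 263.8 CPM in LPS+resveratrol replicates 1 to 3, against 502.5, 539.5 and 478.9 CPM in LPS replicates 1 to 3. It fell by 0.83 ± 0.109 on the log2 scale (SE, n = 3 each; edgeR adjusted p = 0.0243). Even the lowest LPS sample was 1.53 times the highest LPS+resveratrol sample.

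Ifit3b (ENSMUSG00000062488), the near-identical copy of Ifit3, had 185.2, 178.7 and 176.1 CPM in LPS+resveratrol replicates 1 to 3, against 309.9, 332.9 and 287.4 CPM in LPS replicates 1 to 3. It fell by 0.78 ± 0.0994 on the log2 scale (SE, n = 3 each; edgeR adjusted p = 0.0229). Among the 5 members it had the tightest LPS+resveratrol group, with a coefficient of variation of 2.62%, against 7.33% in the LPS group.

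Since reads of these copies may be exchanged, their counts were also summed before the fit. The sum was at 498.8, 458.9 and 439.9 CPM in LPS+resveratrol replicates 1 to 3 and at 812.4, 872.4 and 766.3 CPM in LPS replicates 1 to 3. It fell by 0.81 ± 0.104 on the log2 scale (SE, n = 3 each; edgeR adjusted p = 0.0231), so the call does not rest on how reads were split between Ifit3 and Ifit3b. Ifit3b took 38.7% ± 1.46 of the pair's counts in LPS+resveratrol samples and 37.9% ± 0.371 in LPS samples (SD, n = 3 each).

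Ifit1bl1 (ENSMUSG00000079339), a close relative of Ifit1, was the least abundant member. It had 22.2, 14.2 and 14.0 CPM in LPS+resveratrol replicates 1 to 3, against 42.5, 43.3 and 37.1 CPM in LPS replicates 1 to 3. Behind these levels stood 406, 263 and 275 counts with resveratrol and 780, 802 and 709 counts with LPS alone. It had the largest fall of the 5 members, with a log2 fold change of −1.28 ± 0.199 (SE, n = 3 each; edgeR adjusted p = 0.0321), and of −1.55 ± 0.0913 in the 5-library comparison (edgeR adjusted p = 8.69e-16). Its mean with resveratrol was 41.0% of the LPS mean, where the other members were at 56.4% to 66.2%.

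**Figure D3:**
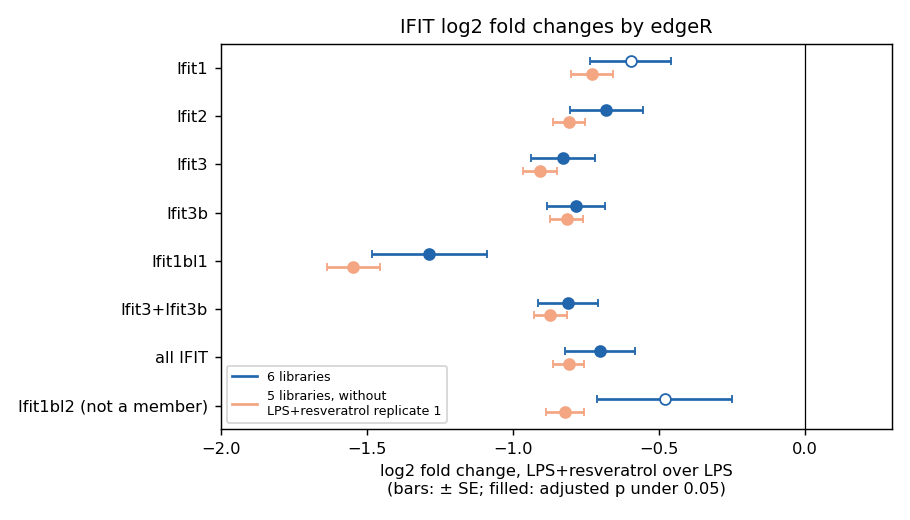
Log2 fold changes (LPS+resveratrol over LPS) of the IFIT genes, their sums and Ifit1bl2, from edgeR over 6 libraries and without LPS+resveratrol replicate 1; bars are ± SE and filled points have an adjusted p under 0.05. Every point lies below 0, Ifit1bl1 lies farthest to the left, and Ifit1 and Ifit1bl2 are open over 6 libraries.

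As a family, the 5 genes took 0.142%, 0.12% and 0.119% of all counts in LPS+resveratrol replicates 1 to 3, against 0.215%, 0.224% and 0.196% in LPS replicates 1 to 3. Their summed counts fell by 0.70 ± 0.12 on the log2 scale (SE, n = 3 each; edgeR adjusted p = 0.0396), and by 0.81 ± 0.0536 in the 5-library comparison. All 5 members had every LPS+resveratrol sample below every LPS sample, a pattern found in 15.9% of tested genes.

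LPS+resveratrol replicate 1 was the highest of its group for each of the 5 members, at 1.04 times the mean of replicates 2 and 3 for Ifit3b, 1.15 times for Ifit3, 1.26 times for Ifit2, 1.27 times for Ifit1 and 1.57 times for Ifit1bl1. With that library in the fit, all 5 log2 fold changes were smaller. Ifit1bl2, outside the member list, showed this most. It had 85.6, 48.7 and 47.4 CPM in LPS+resveratrol replicates 1 to 3, against 85.7, 85.6 and 82.2 CPM in LPS replicates 1 to 3. Over 6 libraries its groups overlapped and it did not pass (log2 fold change −0.48, edgeR adjusted p = 0.296), and the log2 fold change without replicate 1 was −0.82 (edgeR adjusted p = 1.69e-12).

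The calls over 6 libraries were lost whenever LPS+resveratrol replicate 1 stayed in the fit and 1 of the other 5 libraries was left out. When any one of those 5 was left out, all 5 members kept a negative log2 fold change and none passed, with edgeR adjusted p between 0.0844 for Ifit3b and 0.336 for Ifit1; no gene at all was called in those fits, in which the unadjusted p was under 0.05 for 1564 to 2721 genes. DESeq2 over 6 libraries called all 5 members lower, Ifit1 included.

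Levels of different genes were compared per kilobase of transcript, as CPM divided by the length of the transcript with the longest coding sequence. Ifit1 stood at 221.2 ± 32.4 CPM per kilobase in LPS+resveratrol samples and 334.4 ± 34.2 in LPS samples (SD, n = 3 each). Ifit3 followed with 163.8 ± 14.5 and 290.5 ± 17.5, then Ifit3b with 90.0 ± 2.36 and 155 ± 11.4, Ifit2 with 56.5 ± 7.7 and 90.5 ± 5.27, and Ifit1bl1 with 7.64 ± 2.13 and 18.6 ± 1.52, in the same order of groups and units. The order of the 5 genes was the same in both groups. Ifit1 and Ifit3 overlapped between libraries in the LPS group, with 295.7 to 360.5 and 274.4 to 309.2 CPM per kilobase, and did not in the LPS+resveratrol group, where the ranges were 196.3 to 257.9 and 151.2 to 179.7. The placing of Ifit3 and Ifit3b depends on the uncertain split of their reads and on whether reads with several matches were counted.

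Ratios of counts between 2 genes within a library do not depend on how libraries are scaled, and they were compared for all 10 pairs of members. Ifit1bl1 was lower relative to each of the other 4 members in every LPS+resveratrol sample than in any LPS sample. Its log2 ratio to Ifit1 was −4.94, −5.20 and −5.31 in LPS+resveratrol replicates 1 to 3 and −4.44, −4.47 and −4.40 in LPS replicates 1 to 3. The mean difference was −0.71, and it was −0.63 against Ifit2, −0.49 against Ifit3 and −0.53 against Ifit3b (exact permutation test, two-sided, p = 0.1 each, the smallest that 3 against 3 allows; 0.167 adjusted over 10 pairs). This test cannot reach a threshold of 0.05 with 3 samples against 3.

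Among the other 4 members the shifts were smaller. The log2 ratio of Ifit1 to Ifit3 was higher by 0.23 and that of Ifit2 to Ifit3 by 0.14 with resveratrol, in both cases with no overlap between groups (exact permutation p = 0.1 each; 0.167 adjusted over 10 pairs). For Ifit1 against Ifit2, the log2 ratio was 1.45 ± 0.0389 in LPS+resveratrol samples and 1.36 ± 0.0759 in LPS samples, and the groups overlapped (SD, n = 3 each; exact permutation p = 0.2). Ifit3 against Ifit3b stood at 0.66 ± 0.0888 in LPS+resveratrol samples and 0.71 ± 0.0227 in LPS samples, also with overlap (exact permutation p = 0.5).

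**Figure D4:**
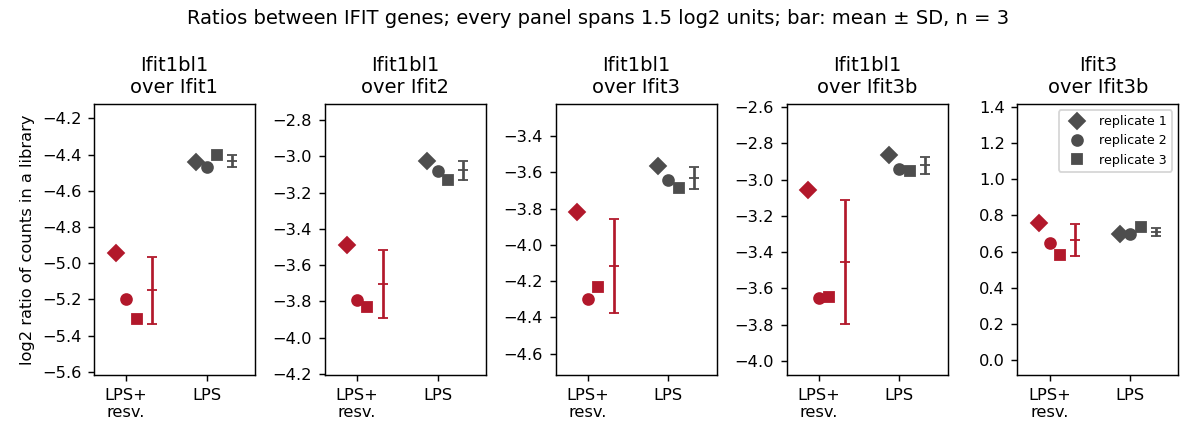
Log2 ratio of counts between 2 IFIT genes in each library, LPS+resveratrol samples left and LPS samples right; points are libraries, bars are mean ± SD (n = 3), and all panels have the same span on the log2 scale. Ifit1bl1 is lower relative to Ifit1, Ifit2, Ifit3 and Ifit3b in all LPS+resveratrol samples, and the ratio of Ifit3 to Ifit3b overlaps between groups.

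Across the 6 libraries each member had a Pearson correlation of at least 0.981 to the mean log2 CPM of the members. That mean includes the member itself, which raises the correlation. Of 6729 other genes with at least median abundance, 14 had a correlation above 0.99 with that mean; a correlation over 6 libraries in 2 groups is mainly set by the group difference, and is given as a description. The 5 closest were Zbp1, Casp8, Gapt, Gm12250 and Clec4a1, with r between 0.994 and 0.997. Zbp1, a sensor of unusual nucleic acid forms that is itself induced by interferon, was at 161.7, 135.8 and 139.3 CPM in LPS+resveratrol replicates 1 to 3 and at 252.3, 255.1 and 236.5 CPM in LPS replicates 1 to 3. Like the IFIT genes it was highest in replicate 1 among the resveratrol samples, a likeness that its choice by correlation over these libraries favours. Casp8, which encodes the cell death protease caspase 8, was at −0.45 (log2 fold change) over 6 libraries, not past the threshold (edgeR adjusted p = 0.0791). Gapt fell by 0.58 and Gm12250 by 0.93 (log2; edgeR adjusted p = 0.0491 and 0.0284), and Clec4a1, a C-type lectin receptor gene, had −0.38 (edgeR adjusted p = 0.0958).

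Of the other interferon-stimulated antiviral genes, 24 were tested, and over 6 libraries 5 fell, 0 rose and 19 did not pass. Of the 24, 16 had an unadjusted p under 0.05 with edgeR, against 2682 of all 13468 tested genes. A negative log2 fold change was found for 23, and DESeq2 called 12 lower. The median log2 fold change was −0.45, against a median of −0.78 over the 5 IFIT genes and of 0.00 over all tested genes. Isg20, an exonuclease that degrades RNA, was at 102.6, 146 and 160.5 CPM in LPS+resveratrol replicates 1 to 3 and at 303.7, 328.4 and 282.2 CPM in LPS replicates 1 to 3, and fell by 1.16 on the log2 scale (edgeR adjusted p = 0.0308). In contrast to the IFIT genes, its lowest value with resveratrol was in replicate 1. Dhx58, an RNA sensor of the RIG-I family, fell by 0.77, Zbp1 by 0.77, Oas1g, of the enzymes that make the activator of RNase L, by 0.63, and Rsad2 (viperin), which makes a chain-terminating nucleotide, by 0.53 on the log2 scale. Oas3, among the most abundant of this list, had −0.37 and did not pass (edgeR adjusted p = 0.13). In the 5-library comparison all 24 fell, where 13.3% of tested genes were called lower. Their median was −0.53 against −0.81 for the IFIT genes.

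The genes that lead from TLR4 to interferon had 1 fall, 0 rises and 9 without a call among 10 tested, with a median log2 fold change of −0.03. Tlr4, the LPS receptor itself, was that gene, at 40.8, 41.6 and 35.6 CPM in LPS+resveratrol replicates 1 to 3 and at 71.2, 61.5 and 65.8 CPM in LPS replicates 1 to 3. With edgeR over 6 libraries, 3 of the 10 had an unadjusted p under 0.05 (Tlr4, Irf7 and Ticam1), against 2682 of 13468 tested genes. Irf7 had −0.62 and did not pass (edgeR adjusted p = 0.0958). Its groups did not overlap, with means of 409.3 CPM with resveratrol and 631.1 CPM with LPS alone. Ticam1 went the other way, at 0.30, and did not pass either (edgeR adjusted p = 0.206). The kinase gene Ikbke stood at 2391 ± 133 CPM in LPS+resveratrol samples and 2373 ± 138 CPM in LPS samples (SD, n = 3 each; edgeR adjusted p = 0.96). Cd14, the co-receptor, was at −0.41 (log2 fold change; edgeR adjusted p = 0.311), with its lowest level in replicate 1, and fell by 0.21 without that library. Ifnb1, the gene of interferon beta, was too low to test, with 0, 6 and 9 counts in LPS+resveratrol replicates 1 to 3 and 9, 5 and 4 counts in LPS replicates 1 to 3. At this depth a difference in Ifnb1 was not detectable. In the 5-library comparison 3 of the 10 fell (Tlr4, Cd14 and Irf7) and 0 rose, where 13.3% of tested genes were called lower. The log2 fold change of Irf7 was then −0.48.

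Of 7 negative regulators of interferon signalling, with a median of −0.25, 0 passed with edgeR over 6 libraries (2 at an unadjusted p under 0.05), and 1 was called lower with DESeq2. Usp18, which removes ISG15 and restrains the interferon receptor, had −0.68 and Ptpn6, a phosphatase, −0.25 (edgeR adjusted p = 0.126 and 0.184), and both fell in the 5-library comparison, where 3 of the 7 fell and 0 rose.

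The IFITM genes, which share only their inducer and a like name with the IFIT genes, had 0 calls among 5 with edgeR (0 at an unadjusted p under 0.05) and 0 with DESeq2 over 6 libraries, at a median log2 fold change of −0.69. Ifitm3, which hinders viral entry, was at 120.4, 534.5 and 508.4 CPM in LPS+resveratrol replicates 1 to 3 and at 823.8, 825.6 and 760.7 CPM in LPS replicates 1 to 3. Replicate 1 was here far below the others of its group, the reverse of its place for the IFIT genes. Without it the median was −0.32, 3 of the 5 fell and 0 rose, Ifitm3 by 0.63 on the log2 scale, while Ifitm6 had −0.06 and did not pass (edgeR adjusted p = 0.429). Of 10 genes for cap methylation and 5′ end processing, which act on the RNA ends that IFIT proteins read, 0 passed over 6 libraries with edgeR (1 at an unadjusted p under 0.05, median −0.12) or DESeq2, and 1 rose and 1 fell without replicate 1. Dusp11, which trims triphosphate RNA ends, had 0.31 and Ramac, a partner of the cap methyltransferase, 0.28 (edgeR adjusted p = 0.301 and 0.361).

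**Figure D5:**
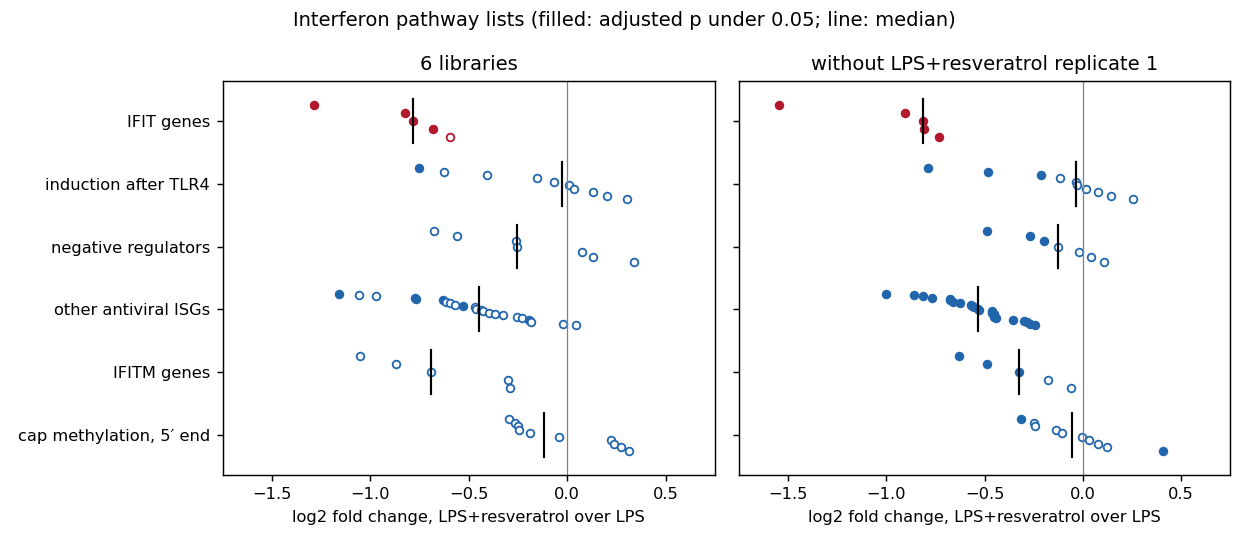
Log2 fold changes (LPS+resveratrol over LPS) of the IFIT genes and of the tested genes of 5 pathway lists, over 6 libraries (left) and without LPS+resveratrol replicate 1 (right); each point is a gene, filled where its adjusted p was under 0.05, and vertical lines are medians. The median of the IFIT genes was −0.78 over 6 libraries, next to −0.45 for the other antiviral genes and −0.03 for the genes that lead from TLR4 to interferon.

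Markers of other cell types that the sorted samples could hold were also compared. Over all 13468 tested genes, 2682 had an unadjusted p under 0.05 with edgeR over 6 libraries. Without replicate 1, edgeR called 13.3% of tested genes lower and 12.1% higher. Of the 7 monocyte and macrophage markers 0 were called over 6 libraries with edgeR (4 at an unadjusted p under 0.05) and 2 with DESeq2, 1 in each direction. Their summed level was 2488 to 2730 CPM in LPS+resveratrol samples and 2537 to 2583 CPM in LPS samples, so the ranges overlapped. That sum mixes opposite shifts, as 6 of the 7 markers had a negative log2 fold change over 6 libraries. Adgre1, the most abundant, was higher with resveratrol, at a mean of 1392 against 1042 CPM with LPS alone. Csf1r was lower, at 797 against 914 CPM, and so was Ly6c2, at 404 against 554 CPM. The groups did not overlap for any of these genes. Without replicate 1, 5 of the markers were lower and 1 was higher. The 7 markers of dendritic cells, plasmacytoid ones included, summed to 110.3 to 171 CPM with resveratrol and to 202.8 to 220.9 CPM with LPS alone, with 0 called over 6 libraries by edgeR (3 at an unadjusted p under 0.05) or DESeq2, and 3 lower without replicate 1. That list holds Bst2, which interferon also induces and which had a mean of 55.7 CPM with resveratrol against 109.5 CPM with LPS alone. Of the 7, 6 had a negative log2 fold change over 6 libraries. In the same order of groups, mean CPM was 28.6 and 36.5 for Tcf4, 44.2 and 47.7 for Irf8, 10.6 and 10.7 for Siglech and 5.77 and 5.26 for Flt3. The T and NK cell markers summed to at most 10.8 CPM in any library, and the B cell markers to 87.8 to 132.8 CPM with resveratrol and 141.2 to 151.8 CPM with LPS. Eosinophil and basophil markers summed to 65.9 to 100.8 CPM with resveratrol and 112.3 to 116.8 CPM with LPS, and erythroid markers to 9.74 to 88.2 CPM with resveratrol and 66.3 to 82.2 CPM with LPS. Over 6 libraries edgeR called 0 markers in each of these 4 lists, with 1 of 5 B cell, 2 of 5 T and NK cell, 0 of 4 erythroid and 2 of 5 eosinophil and basophil markers tested at an unadjusted p under 0.05, and DESeq2 called 1 eosinophil and basophil marker lower and 0 in the other 3 lists. Without replicate 1, edgeR called 2 B cell, 2 T and NK cell, 1 erythroid and 2 eosinophil and basophil markers lower and 0 higher. None of the markers was at 0 in all libraries. Of the 11 neutrophil markers 0 were called over 6 libraries with edgeR (4 at an unadjusted p under 0.05) and 2 were higher with DESeq2; without replicate 1, 6 were higher and 0 lower. The part of the cell makeup in the IFIT result was not tested.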

How the data were processed

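The deposited table holds raw counts per Ensembl gene ID. The submitters' processing notes name Bowtie 0.12.2 and mm8; what counted the reads, with which annotation and strand setting, was not given in the sources used here. Of 25663 IDs, 25595 were matched to a symbol. Genes were kept by filterByExpr (minimum count 10) and scaled by TMM. The test of group was the robust, two-sided quasi-likelihood test of edgeR 4.0.16 in R 4.3.3, with Benjamini-Hochberg adjustment over 13468 genes at a threshold of 0.05. Standard errors come from the F statistic. Fits that leave out a library kept the same genes. Ratios used counts plus 0.5. Transcripts came from GENCODE M21 and promoters from RefSeq on GRCm38.p6. Alternatives used DESeq2 1.42.0, limma-voom (limma 3.58.1), other scalings and filters, the replicate number as a block, and each library left out; DESeq2 and limma-voom over 5 libraries were added after the data were seen. The members, lists and tests were chosen with earlier results of these data known. Named are the 5 members and the 5 genes most correlated with the family. Also named are each list gene called over 6 libraries and the 2 most abundant genes of each pathway list. Ifit1bl2, Ifnb1, Irf7, Ticam1, Bst2 and the single cell type markers were named after their values were seen. No 2 libraries of a group had identical counts, and their chi-square statistics, divided by the degrees of freedom, were 3.29 or more, so all were counted separately. A further pathway list, beside the 5 described, is not reported here.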

Additional observations from a re-analysis of the deposited data

How the results depend on the processing

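All 5 IFIT genes and both sums had a negative log2 fold change under every alternative tried. Over all tested genes 247 were called, and 820 with DESeq2, 392 with no filter, 0 with the replicate block (2287 at an unadjusted p under 0.05), 2547 with DESeq2 and 3166 with limma-voom over 5 libraries, and 0 to 3420 when one library was left out. Of the IFIT genes 4 were called, 0 with the replicate block, and 0 to 5 when one library was left out. Same-numbered libraries had correlated deviations of 0.186, 0.186 and −0.077, so the numbers were not taken to pair the samples; with the replicate block the log2 fold changes were −1.31 for Ifit1bl1, −0.69 for Ifit2, −0.83 for Ifit3, −0.78 for Ifit3b, −0.81 for the sum of Ifit3 and Ifit3b and −0.71 for the sum of all 5, none past the threshold. Ifit1 passed with DESeq2 (−0.60), with no filter (−0.62), and over 5 libraries with DESeq2 (−0.72) and limma-voom (−0.72). The cause of these changes was not tested.

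With one library left out, log2 fold changes ranged from −0.73 to −0.52 for Ifit1, −1.55 to −1.18 for Ifit1bl1, −0.81 to −0.62 for Ifit2, −0.91 to −0.80 for Ifit3, −0.84 to −0.75 for Ifit3b, −0.87 to −0.78 for Ifit3 with Ifit3b and −0.81 to −0.65 for all 5. Calls among the list genes ranged from 0 to 3 for induction after TLR4, 0 to 3 for negative regulators, 0 to 24 for antiviral genes, 0 to 3 for IFITM and 0 to 2 for cap genes; each highest count was without LPS+resveratrol replicate 1. In the order of those lists, DESeq2 called 2, 1, 12, 0 and 0, no filter called 2 for induction after TLR4, and the replicate block 0 in every list. Over 5 libraries DESeq2 called 3, 3, 23, 3 and 2, and limma-voom 3, 3, 24, 3 and 2. No ratio between members changed sign with a library left out or with 5 counts added. Depth limited Ifnb1, and Ifit1bl1 rests on the fewest counts of the members.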
